A study of Mus musculus with 3 samples.

Results

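The 52 genes described here encode chloride channels, sodium channels and their accessory subunits. They were measured in cells sorted from mouse kidney by a label of renin cells, in samples that also carried markers of other kidney cells. The genes were chosen by name. A probe set was taken where its only platform symbol began with Clcn, Clic, Clca, Ano plus a digit, Best plus a digit, Lrrc8, Scn plus a digit or Scnn, or was Cftr or Bsnd. This gave 67 of 21789 probe sets with 1 symbol and 52 of 19938 genes.

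The mice were male adults of unspecified strain that carried Ren1c-YFP, a transgene that labels juxtaglomerular renin cells with yellow fluorescent protein (YFP). For 2 weeks they drank water with captopril (0.5 mg/ml), which blocks the enzyme that makes angiotensin II, and ate low-salt chow. Kidney cortex was digested, YFP-positive cells were sorted by fluorescence, and amplified RNA was hybridised to Affymetrix arrays, 3 in all, numbered as replicates 2, 4 and 5. They form 1 group with nothing to set it against, so the values are levels and show no effect of captopril, low salt or sorting. No pooling was done, per the labels, which leave unsaid whether each array was its own mouse. The p-values therefore cover the spread between these arrays, which may be technical.

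Chloride and sodium channels set how ions, and with them water, cross cell membranes. In the kidney, the thick ascending limb and distal tubule pass chloride back to blood with the help of the channel subunit barttin, and the collecting duct takes up sodium through the epithelial sodium channel, ENaC, under the control of aldosterone. Salt reaching the macula densa governs renin release, and in renin cells themselves a rise in calcium, which also opens calcium-activated chloride channels, restrains it. Other members work inside the cell, in endosomes and lysosomes, or respond to cell swelling.

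Each probe set has 1 log2 signal on each array. A gene was called above background where its signal exceeded the array's background level, the 95th percentile of 1027 olfactory receptor genes (6.20, 6.32 and 6.50 in replicates 2, 4 and 5), by limma's one-sided test at a Benjamini-Hochberg adjusted p under 0.05 over all 19938 genes. Probe affinity also sets a signal, so a difference in signal between genes is not read as a difference in transcript. Where a gene is called the highest or lowest of a list, its signal alone is meant. Of the listed markers, 8 of 8 measured for renin cells and 10 of 10 for smooth muscle were called, while Ren1 and Akr1b7 were not analysed here. Whether the 8 mark renin cells alone was not tested, so their count does not identify the cells. The samples also carried markers of other kidney cells, called in 8 of 8 cases for proximal tubule, 6 of 6 for thick ascending limb, 5 of 6 for principal cells, 8 of 8 for intercalated cells, 6 of 7 for pericytes, 6 of 9 for endothelium, 4 of 7 for the distal convoluted and connecting tubule, 3 of 6 for fibroblasts, 2 of 7 for macrophages and 1 of 5 for the macula densa. Of all genes 37.3% were called. List medians lay 2.49 above the level for renin cells and 4.30 for smooth muscle. For proximal tubule the median was 4.76 above it, for thick ascending limb 3.955, for principal cells 1.39 and for intercalated cells 1.12. The 7 distal genes include Klk6 (mean 6.34, not called), taken through a synonym in place of the listed Klk1. Klk6 was not a chosen marker. No podocyte marker (0 of 5) and no neuron or Schwann cell marker (0 of 8) was called. Which cells of a sample a channel transcript came from was not tested, and in such bulk samples fewer cells of a type and less RNA per cell cannot be told apart.

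The promoters of 4 genes, chosen after their values were seen, are shown because the genes differed between the arrays in contrary ways. Scnn1b and Scnn1g, which encode the beta and gamma subunits of ENaC and are neighbours on chromosome 7, were lowest in replicate 2. Lrrc8c, a subunit of the volume-regulated anion channel, and Ano1, the calcium-activated chloride channel, were highest there. Each line gives the 250 bases before the RefSeq start in GRCm38.p6, read 5′ to 3′ on the gene's strand, with GC boxes (GGGCGG on either strand) in capitals.
Scnn1b: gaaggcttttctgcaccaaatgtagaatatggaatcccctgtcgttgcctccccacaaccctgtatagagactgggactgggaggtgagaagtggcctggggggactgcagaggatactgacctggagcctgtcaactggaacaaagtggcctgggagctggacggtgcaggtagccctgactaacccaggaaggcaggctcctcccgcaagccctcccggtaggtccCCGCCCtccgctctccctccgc
Scnn1g: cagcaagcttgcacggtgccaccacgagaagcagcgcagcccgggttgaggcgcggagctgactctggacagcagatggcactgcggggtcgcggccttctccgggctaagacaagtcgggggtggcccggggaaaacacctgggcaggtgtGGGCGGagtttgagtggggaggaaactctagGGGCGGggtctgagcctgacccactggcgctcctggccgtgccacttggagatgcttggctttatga
Lrrc8c: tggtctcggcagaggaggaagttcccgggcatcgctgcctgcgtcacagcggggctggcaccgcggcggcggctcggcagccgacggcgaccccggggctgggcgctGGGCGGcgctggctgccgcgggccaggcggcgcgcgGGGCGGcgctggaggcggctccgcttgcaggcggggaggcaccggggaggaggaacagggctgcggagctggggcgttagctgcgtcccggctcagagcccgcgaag
Ano1: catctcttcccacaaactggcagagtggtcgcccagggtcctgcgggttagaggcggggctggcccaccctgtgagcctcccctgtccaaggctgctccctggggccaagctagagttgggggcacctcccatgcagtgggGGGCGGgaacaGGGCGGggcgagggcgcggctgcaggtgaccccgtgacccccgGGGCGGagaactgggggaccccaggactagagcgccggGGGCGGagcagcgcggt

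These windows are chr7:121864788-121865037 on the plus strand for Scnn1b, chr7:121734229-121734478 on the plus strand for Scnn1g, chr5:105519221-105519470 on the plus strand for Lrrc8c and chr7:144738574-144738823 on the minus strand for Ano1. The GC box was found 1 time for Scnn1b, 2 times for Scnn1g, 2 times for Lrrc8c and 4 times for Ano1, and 32.7% of 32851 RefSeq windows of that length hold at least 1. Windows differed in CpG content, with 7 CpG pairs for Scnn1b, 16 for Scnn1g, 35 for Lrrc8c and 16 for Ano1, against a median of 6 over all windows. Also searched on both strands were TATAAA (in 12.4% of all windows), the steroid receptor half-site TGTTCT (16.1%), the cAMP response element TGACGTCA (1.55%) and the CArG box (1.47%). None of these letters occurs in the 4 windows. The motifs overlap no match of another motif there, and a match is a description of the sequence only. RefSeq windows were at hand for 41 of the 52 genes.

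Of the 52 genes, 16 were above background (30.8%), against 37.3% of all genes tested. They were the barttin gene Bsnd, the endosomal exchanger genes Clcn3, Clcn4 and Clcn5, the intracellular channel genes Clic1, Clic4 and Clic5, the anoctamin genes Ano1 and Ano6, the anion channel genes Lrrc8a, Lrrc8c and Lrrc8d, all 3 ENaC genes Scnn1a, Scnn1b and Scnn1g, and Scn2a, the last by 1 of its 14 probe sets. The median of the 52 genes lay 0.35 log2 units under the background level (-0.35), and that of all genes at -0.01. All 16 exceeded the level on every array, and 28 of the other 36 exceeded it on none. Of all 19938 genes, 8360 exceeded it on every array, and 8710 of the 12501 uncalled genes exceeded it on none. At an unadjusted p under 0.05 the count was also 16 of 52, against 8086 of all 19938 genes. The called gene closest to the level was Scnn1b, 0.78 above it, and the highest uncalled gene was Clcn6, 0.19 above it. The count rests on the level: it was 8 with the 99th percentile of olfactory receptor genes (15.4%, against 16.6% of all genes) and 28 with the 95th percentile of vomeronasal receptor genes (53.8%, against 66.0%).

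**Figure D1:**
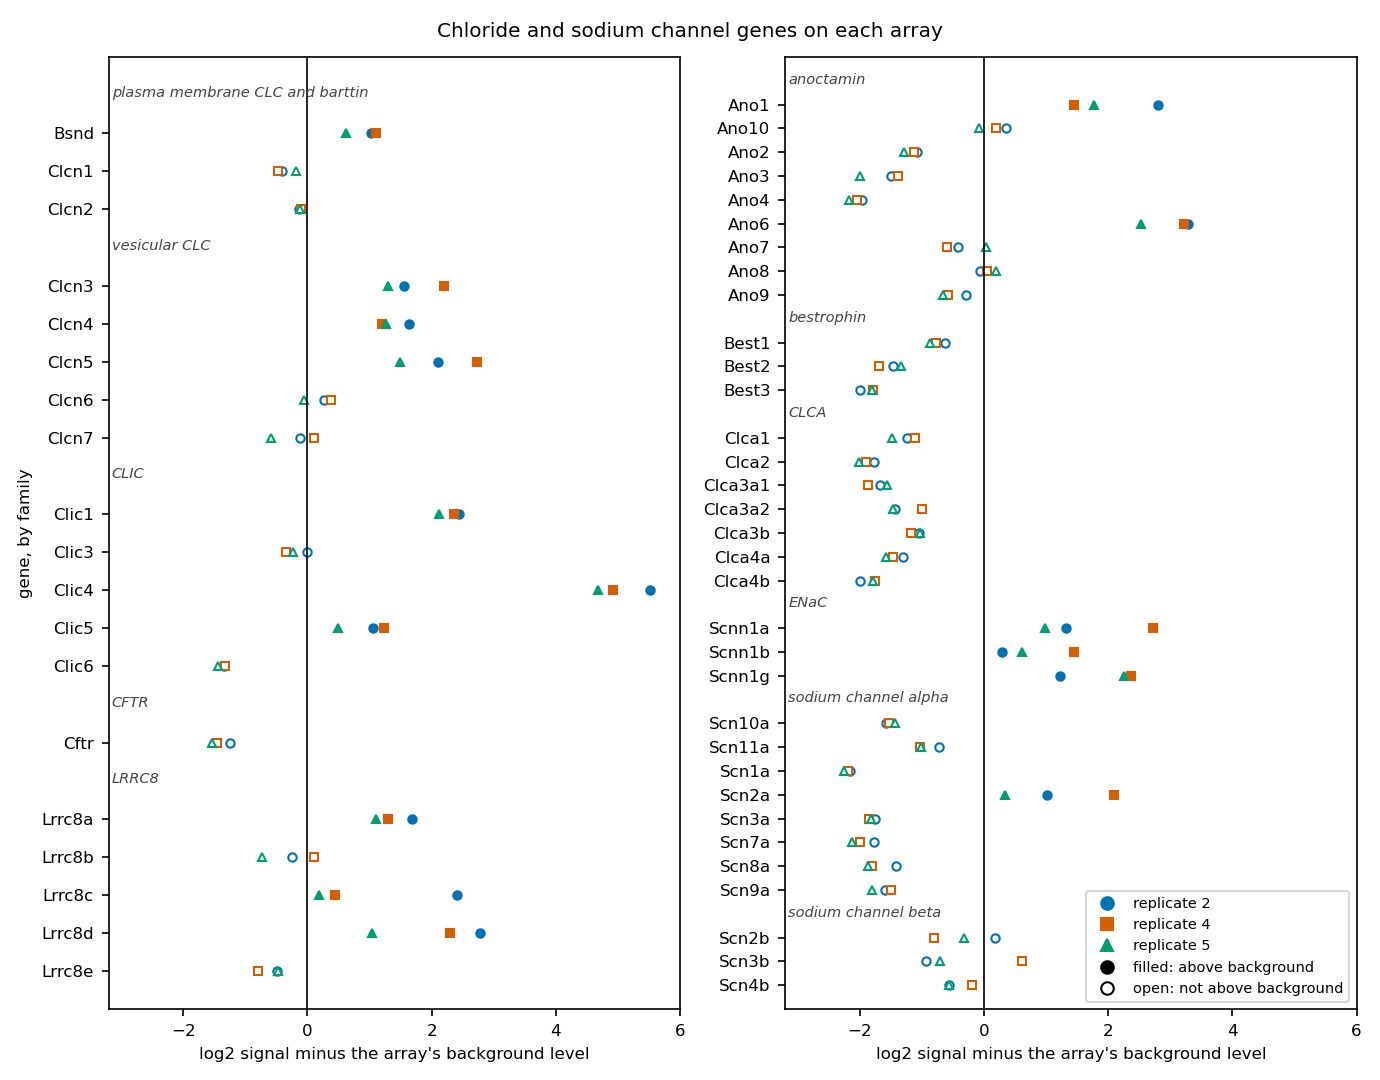
Log2 signal minus the background level of the same array (x axis, log2 units) for each of the 52 genes (y axis, by family), with 1 point per array and filled points for the 16 genes above background. Clic4 stands 4.68 to 5.52 above the level, and the CLCA, bestrophin and CFTR genes lie under it on every array at the probe sets that carry 1 symbol.

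**Figure D2:**
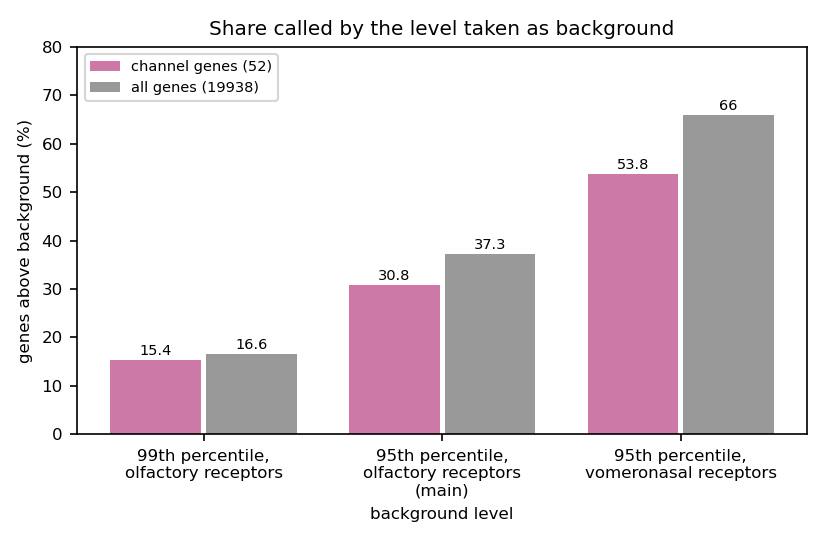
Percentage of genes called above background (y axis) among the 52 channel genes (left bar of each pair) and all 19938 genes (right bar), for 3 background levels (x axis). The level used in the text gave 30.8% against 37.3%, the 99th percentile 15.4% against 16.6% and the vomeronasal level 53.8% against 66.0%. These differences were not tested.

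Barttin and the CLC channels of the plasma membrane came first by role. Bsnd, whose product is an accessory subunit of chloride channels in the basolateral membrane, had log2 signals of 7.23, 7.42 and 7.13 in replicates 2, 4 and 5. The mean of 7.26 ± 0.15 (SD, n = 3 here and below) lay 0.92 above background (limma adjusted p = 0.00287). Each SD is that of the log2 signals, while the test uses signals minus the array's level. For Bsnd these were 1.03, 1.11 and 0.63. Clcn2, a widely used channel that opens on hyperpolarisation, had a mean of 6.22 ± 0.16, and Clcn1, the channel of skeletal muscle, one of 5.99 ± 0.29. Neither exceeded the level on any array. Bsnd was not called with the 99th percentile level (limma adjusted p = 1.0).

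Around Bsnd, the list of genes for salt reabsorption in the thick limb and distal tubule was above background in 13 of 13 measured members, with a list median 3.81 above the level. They included Atp1b1, the beta subunit of the sodium pump (12.54 ± 0.30), Umod, uromodulin (11.79 ± 0.57), Fxyd2, a regulator of the pump (11.50 ± 0.32), and the potassium channel gene Kcnj1 (10.90 ± 0.32). The lowest was Kcnj10, a basolateral potassium channel gene, at 7.32 ± 0.45. Umod, Kcnj1, Slc12a1, Cldn10 and Cldn16 are also on the list of thick ascending limb markers. Slc12a3 is also on that of the distal convoluted and connecting tubule, so the lists are not independent.

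The vesicular CLC genes encode exchangers of chloride for protons, and 3 of 5 were above background. Clcn5, the exchanger of proximal tubule endosomes whose loss causes Dent disease, had signals of 8.31, 9.05 and 7.99 in replicates 2, 4 and 5, a mean of 8.45 ± 0.54 and a height of 2.10 over background (limma adjusted p = 0.000302). Replicate 4 was the highest. For Clcn3, an exchanger of endosomes and synaptic vesicles, the signals were 7.75, 8.51 and 7.79, again highest in replicate 4, with a mean of 8.02 ± 0.43, 1.68 above the level (limma adjusted p = 0.000487). Clcn4, a close relative that pairs with it, gave 7.83, 7.51 and 7.77, a mean 1.36 above the level (7.70 ± 0.17, limma adjusted p = 0.000577), and was lowest in replicate 4. Clcn6, of late endosomes, was at 6.53 ± 0.14 (limma adjusted p = 0.278). Clcn7, of lysosomes, was at 6.14 ± 0.26, under the level in replicates 2 and 5. With the 99th percentile level Clcn4 missed the threshold (limma adjusted p = 0.0898).

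The list of lysosomal partners was called in 12 of 14 measured members, with a median 2.30 above the level. Lamp2 (11.34 ± 0.28) and Lamp1 (10.59 ± 0.23), membrane proteins of lysosomes, Ctsd (10.43 ± 0.44), the protease cathepsin D, and the proton pump subunit gene Atp6v1e1 (9.95 ± 0.39) were among them. The 2 that did not pass were Ostm1 (6.50 ± 0.54, limma adjusted p = 0.551), which encodes the beta subunit of the Clcn7 exchanger, and Tpcn2 (6.46 ± 0.10, limma adjusted p = 0.478), a lysosomal cation channel gene. Ostm1 was named after its values were seen.

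In the CLIC family, whose proteins exist both in solution and in membranes, 3 of 5 genes were above background. Clic4, which takes part in forming the lumen of blood vessels, had signals of 11.72, 11.25 and 11.18 in replicates 2, 4 and 5. Its mean of 11.38 ± 0.29 lay 5.04 above background (limma adjusted p = 8.5e-07), with replicate 2 the highest. Clic1 gave 8.64, 8.68 and 8.63, a range of 0.05 log2 units, which only 0.861% of the genes above background undercut. Minus the level of each array the signals were 2.43, 2.36 and 2.12, so they were less close. The mean was 2.31 above the level (8.65 ± 0.03, limma adjusted p = 6.01e-05). Clic5, known from the podocyte foot process and the hair cell, had signals of 7.26, 7.56 and 6.99, a mean 0.93 above the level (7.27 ± 0.28, limma adjusted p = 0.00441). Podocyte markers were called in 0 of 5 cases, with per-array medians between 6.34 and 6.43. Clic3 (6.15 ± 0.15) and Clic6 (4.97 ± 0.11) exceeded the level on no array. Clic5 was not called with the 99th percentile level (limma adjusted p = 1.0).

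Among 9 anoctamin genes 2 were above background. Ano1, the calcium-activated chloride channel of smooth muscle and secretory epithelium, had signals of 9.00, 7.76 and 8.28 in replicates 2, 4 and 5. The mean was 8.35 ± 0.62, 2.00 above background (limma adjusted p = 0.000501), with replicate 2 the highest. Ano6, a calcium-activated scramblase that turns phosphatidylserine outward, gave 9.48, 9.53 and 9.03 and a mean 3.01 above the level (9.35 ± 0.28, limma adjusted p = 2.81e-05). Both kept their calls under each of the 9 alternatives tried. Ano2, the calcium-activated channel of olfactory neurons, had signals of 5.13, 5.19 and 5.22 (5.18 ± 0.05), under the level on every array. Ano10 (6.49 ± 0.07) and Ano8 (6.40 ± 0.28) lay on the level without passing (limma adjusted p = 0.381 and 0.712). The remaining members Ano3, Ano4, Ano7 and Ano9 had means between 4.28 and 6.01.

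For calcium-activated chloride current, the list of calcium release and chloride loading genes was called in 8 of 14 measured members, with a median 1.32 above the level. Slc12a2, the transporter NKCC1 that loads cells with chloride, was at 11.92 ± 0.15. The G protein gene Gna11 (9.47 ± 0.46), Agtr1a, the type 1 angiotensin II receptor (8.66 ± 0.32), and the phospholipase gene Plcb1 (8.65 ± 0.23) were also above background. Kcnma1, the large-conductance potassium channel gene, was the lowest at 5.28 ± 0.09.

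The other families of chloride channels had no member above background. Of 3 bestrophin genes, Best1, the channel of retinal pigment epithelium, was at 5.59 ± 0.05, Best2 at 4.84 ± 0.29 and Best3 at 4.48 ± 0.25. The 7 CLCA genes, whose products are secreted or surface proteins that modulate channels and mucus, had means between 4.44 for Clca2 and 5.26 for Clca3b. Between these lay Clca1, Clca3a1, Clca3a2, Clca4a and Clca4b. Cftr, the cAMP-gated channel mutated in cystic fibrosis, had signals of 4.95, 4.86 and 4.97 in replicates 2, 4 and 5 (4.93 ± 0.06), and 59.4% of olfactory receptor genes had a lower mean. At the probe sets with 1 symbol, none of these 11 genes exceeded the level on any array or was called with any of the background levels. A probe set that carries the symbols of both Clca4a and Clca4b, left out of the counts, read 6.19, 6.35 and 6.75 and was above the level in replicates 4 and 5. Also, a probe set under background gives no measure of how little transcript there was.

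The LRRC8 proteins form the volume-regulated anion channel, in which LRRC8A is the obligatory subunit and the others choose what passes, and 3 of 5 genes were above background. Lrrc8a had signals of 7.89, 7.61 and 7.61 in replicates 2, 4 and 5, a mean 1.36 above the level (7.70 ± 0.16, limma adjusted p = 0.000678). Lrrc8d gave 8.98, 8.61 and 7.54, with replicate 5 the lowest, and a mean of 8.38 ± 0.75, 2.03 above the level (limma adjusted p = 0.000908). Lrrc8c gave 8.61, 6.76 and 6.70, so that 1 array stood far above the other two. Its mean was 7.35 ± 1.09, 1.01 above the level (limma adjusted p = 0.0455), and without replicate 2 it was not called (limma adjusted p = 0.209), nor without the variance trend (limma adjusted p = 0.0879). Lrrc8b (6.05 ± 0.34) and Lrrc8e (5.75 ± 0.25) had means under the level. With the 99th percentile level Lrrc8a and Lrrc8c were not called (limma adjusted p = 0.103 and 1.0).

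Genes for cell volume and other chloride transport were called in 10 of 12 measured members of their list, with a median 0.80 above the level, and in 5 without replicate 2. Slc12a2 is on this list too. Slco2a1, a prostaglandin transporter that also forms a large anion channel, was at 11.33 ± 0.38, Slc6a6, the taurine transporter, at 9.94 ± 0.46 and Nfat5, the transcription factor of the response to high salt, at 7.99 ± 0.19. The lowest was the betaine transporter gene Slc6a12 at 6.32 ± 0.20.

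All 3 ENaC genes were above background. Scnn1a, the alpha subunit, had signals of 7.52, 9.04 and 7.49 in replicates 2, 4 and 5, with replicate 4 standing apart, and a mean of 8.02 ± 0.89, 1.68 above background (limma adjusted p = 0.00243). For Scnn1b, the beta subunit, the signals were 6.50, 7.76 and 7.12, again highest in replicate 4, with a mean 0.78 above the level (7.13 ± 0.63, limma adjusted p = 0.0182). Scnn1g, the gamma subunit, gave 7.42, 8.69 and 8.76, so that replicates 4 and 5 were close and replicate 2 low, and a mean 1.95 above the level (8.29 ± 0.75, limma adjusted p = 0.000444). Scnn1b was not called without replicate 4 (limma adjusted p = 0.137). With the 99th percentile level 1 of the 3, Scnn1g, passed, while Scnn1a (limma adjusted p = 0.149) and Scnn1b (limma adjusted p = 1.0) did not. Markers of principal cells, which carry ENaC, were called in 5 of 6 cases, with per-array medians of 7.39, 8.09 and 7.78 over the 6 genes, and Aqp4 (5.68) was the one under background. Their part in the ENaC signals was not tested.

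In the list of aldosterone and ENaC control, 15 of 18 measured members were above background, with a median 1.17 above the level. Atp1b1 and Kcnj1 are on it, with Cul3 (11.46 ± 0.09), the ubiquitin ligase scaffold, and Wnk1 (10.79 ± 0.15), the kinase of the chloride-sensing WNK pathway. The 3 that did not pass were Nr3c2, the mineralocorticoid receptor (5.82 ± 0.38), the lowest, Klhl3, the adaptor that brings WNK kinases to Cul3 (5.92 ± 0.28), and Sgk1, the kinase induced by aldosterone (6.38 ± 0.45, limma adjusted p = 0.889). Klhl3 and Sgk1 were named after their values were seen.

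Voltage-gated sodium channels carry the action potential of nerve and muscle, and 1 of 8 alpha subunit genes was above background. Scn2a, the channel Nav1.2 of brain neurons, was taken at its brightest probe set, with signals of 7.22, 8.41 and 6.84 in replicates 2, 4 and 5 and a mean 1.15 above the level (7.49 ± 0.82, limma adjusted p = 0.0113). The gene has 14 probe sets, which did not give 1 level. Their means ran from 3.46 to 7.49 with a median of 5.06, and 11 were under the level. Tested one by one, 1 of the 14 was called (limma adjusted p = 0.0127), and with the mean of the probe sets the gene was not called (limma adjusted p = 1.0). Of the 14, 9 were highest in replicate 4, among them one with signals of 5.65, 8.31 and 5.91. The signal of the brightest probe set is therefore not taken as the level of Scn2a.

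**Figure D3:**
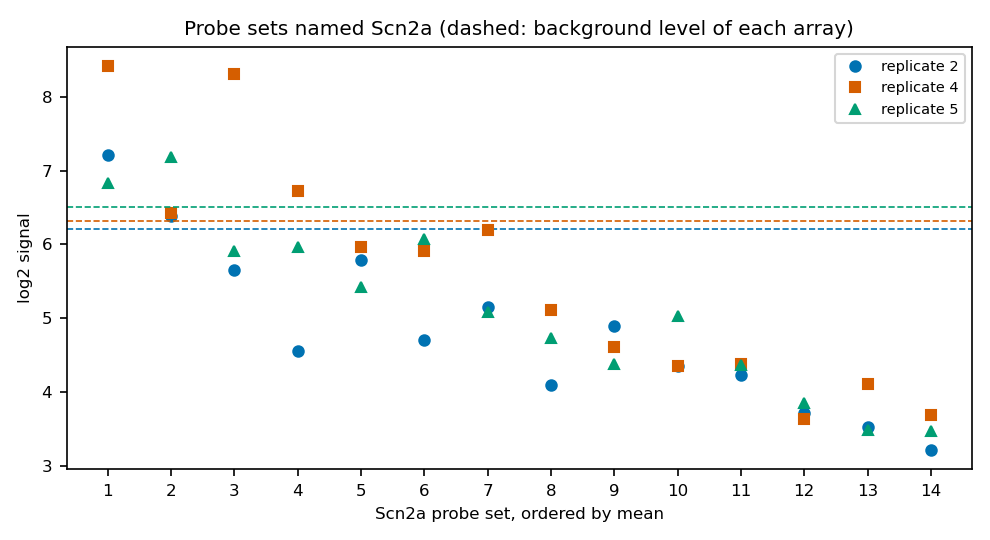
Log2 signal (y axis) of the 14 probe sets named Scn2a, ordered by mean (x axis), with 1 point per array and the background level of each array as a dashed line. The brightest lies above the level on all 3 arrays, and 10 lie under it on every array.

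The other alpha subunit genes were under the level on every array. Scn1a, Scn3a and Scn8a, which encode neuronal channels, had means of 4.14 ± 0.10, 4.53 ± 0.13 and 4.65 ± 0.14. Scn9a, Scn10a and Scn11a, of sensory neurons, were at 4.72 ± 0.11, 4.83 ± 0.23 and 5.42 ± 0.12. Scn7a, the sodium-sensing relative of these channels, was at 4.38 ± 0.06. Of the 3 beta subunit genes, which encode adhesion-type accessory proteins, none was called. Scn3b had signals of 5.26, 6.92 and 5.79 in replicates 2, 4 and 5 and a mean of 5.99 ± 0.85, with replicate 4 alone above its level. Scn2b (6.03 ± 0.46) exceeded the level in replicate 2 alone, and Scn4b (5.90 ± 0.25) on no array.

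Partners of these channels were also mostly under the level, with 3 of 12 measured members called and a list median 0.34 under it (-0.34). The 3 were Rangrf (8.52 ± 0.42), Ank3, the ankyrin that anchors sodium channels (7.86 ± 0.37), and the ubiquitin ligase gene Nedd4l (7.44 ± 0.27), which also acts on ENaC. Fgf14, one of the intracellular FGF homologues, was the lowest at 4.78 ± 0.28. Over the 6 partner lists together, 57 of 79 measured genes were above background (72.2%), and 37.3% of all genes were. The lists were chosen with earlier results of these data known, so the higher share is no test of the partners.

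The second question was how far the arrays differed in these genes. Over all 52 genes, 9 had a range over the 3 arrays of more than 1 log2 unit (17.3%), against 8.66% of all 19938 genes. Of the 16 genes above background the number was 8 (50.0%), against 13.7% of all 7437 genes above background. They were Lrrc8c (1.91), Scn2a (1.58), Scnn1a (1.55), Lrrc8d (1.44), Scnn1g (1.34), Scnn1b (1.27), Ano1 (1.23) and Clcn5 (1.06). Lrrc8c and Scnn1b were called only with the array where they were highest, so the filter itself favoured a wide range. Among genes called with each replicate left out in turn the number was 6 of 14 (42.9%), against 13.8% of 5864 genes. Scn2a enters by its brightest probe set, and whether that probe set measures Scn2a could not be checked. Without Scn2a the numbers were 7 of 15 genes above background (46.7%) and 5 of 13 called with each replicate left out (38.5%). Among genes above background with a mean signal from 7 to 9.5, a window chosen after the data were seen, the share was 8 of 15, against 16.1% of 5359 genes. With 1 array on a side, no difference between arrays could be tested, and members of 1 channel are not independent replicates.

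The differences ran in more than 1 direction. In replicate 2, Lrrc8c stood 1.88 log2 units above the mean of the other arrays, Ano1 0.98 and Lrrc8d 0.90 above it, while the differences were -1.30 for Scnn1g, -0.95 for Scnn1b and -0.74 for Scnn1a. In replicate 4, Scnn1a stood 1.53 above the others, the brightest Scn2a probe set 1.39, Scnn1b 0.96, Clcn5 0.90 and Clcn3 0.74, and Ano1 was below them at -0.87. Replicate 5 held the lowest signal of 10 of the 16 genes, Lrrc8d furthest below at -1.26, and of 52.8% of all genes above background. Replicate 4 held the highest signal of 9 of the 16, and of 35.4% of all genes above background.

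Cell type markers differed between the arrays as well. Over all measured markers of a list, called or not, the median difference from the other arrays in replicates 2, 4 and 5 was 0.89, -0.10 and -0.60 for endothelium and 0.17, 0.64 and -0.86 for the thick ascending limb. It was -0.43, 0.38 and -0.13 for principal cells, -0.37, 0.42 and 0.20 for intercalated cells and -0.14, 0.03 and -0.13 for the distal convoluted and connecting tubule. The last of these lists includes Klk6 in place of Klk1. Single endothelial markers ran from 2.40 for Ptprb to -0.46 for Tek in replicate 2, with Cdh5 at 1.86. Renin cell markers differed by 0.43, -0.20 and -0.10 and smooth muscle markers by 0.20, -0.21 and 0.07. Over all genes above background the median difference was 0.12, 0.05 and -0.19 in replicates 2, 4 and 5. In replicate 5, principal cell markers were at -0.13, Scnn1g at 0.71, Scnn1b at -0.01 and Scnn1a at -0.79. The 4 called markers of the distal convoluted and connecting tubule had a median of 0.26 there. They were Trpv5 (0.84), S100g (0.69), Calb1 (-0.18) and Slc12a3 (-0.36). Ptprb, Cdh5, Tek and these 4 markers were named after their values were seen. The part of these cells in the differences of the channel genes was not tested.

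**Figure D4:**
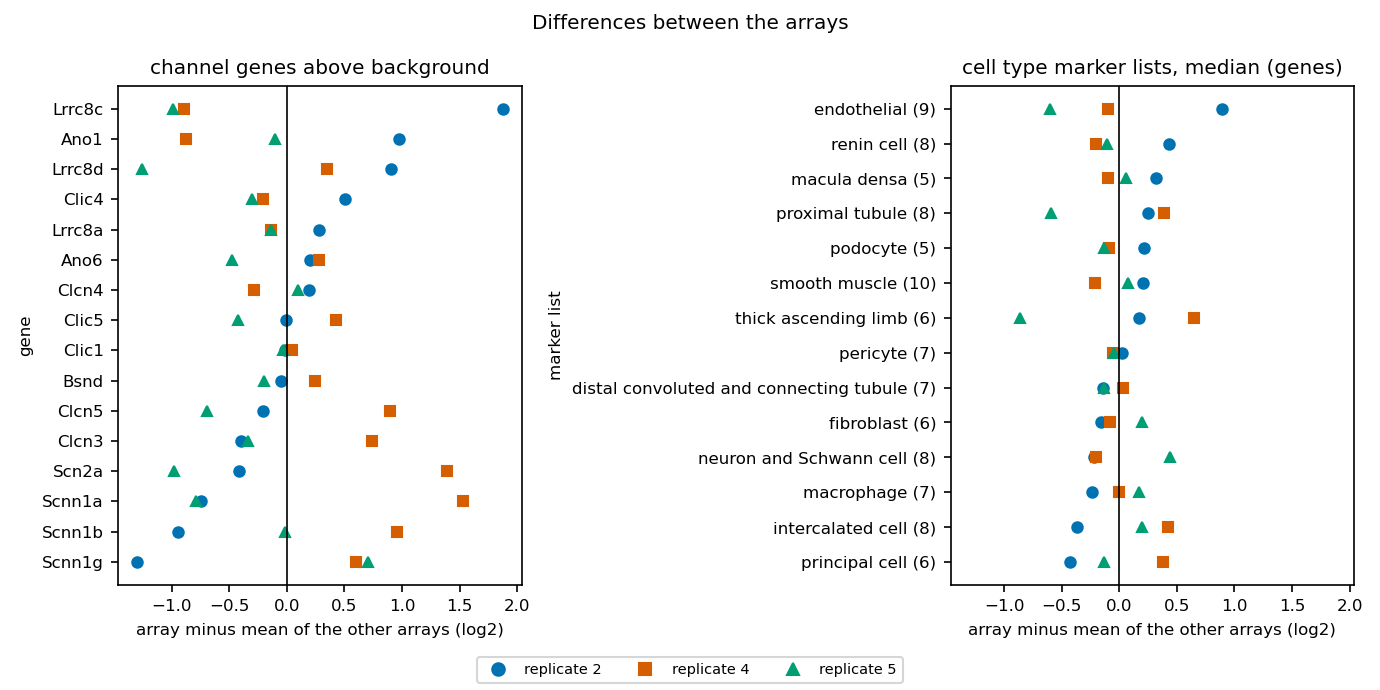
Each array's log2 signal minus the mean of the other arrays (x axis) for the 16 channel genes above background (left) and, as the median over all measured markers with their number in brackets, for 14 cell type marker lists (right), with 1 point per array. Replicate 2 is at 1.88 for Lrrc8c and -1.30 for Scnn1g, and at 0.89 for endothelial and -0.43 for principal cell markers.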

How the data were processed

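Per the labels, RNA of 3 sorted samples went through 1 round of NuGEN amplification, biotin labelling and hybridisation. The deposited values are log2 signals per probe set. The submitters' processing notes name Affymetrix Expression Console without a version, and how signals were corrected and normalized is not given in the sources used here. That they are log2 was judged from their range (array medians 6.09, 6.11 and 6.21). Precision is limited by having 3 arrays.

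Probe sets were named from the platform annotation. Those with several symbols were left out, and the brightest probe set stood for a gene. Symbols were checked by Entrez identifier against RefSeq (21698 of 21789 matched, 0 changed). The log2 signal minus the background level was fitted over all genes in limma 3.58.1 and R 4.3.3 (intercept only, eBayes with trend). In simulated data with independent noise for each gene, 68% of genes set 0.5 above the level were called. At 1 above it 96% were, and of genes at or under the level 0.121%. Errors shared by all genes of an array were not simulated. Python 3.11.15, pandas 2.3.3, numpy 2.4.6 and matplotlib 3.10.9 were used.

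The genes, the 6 partner lists and the 14 marker lists were chosen with earlier results of these data known. The naming rule took every channel gene, and from each partner list up to 4 called members with the highest mean and the lowest member. Partner lists held 86 genes, of which 79 were measured. The alternatives were 2 other background levels, the mean of the probe sets, every probe set on its own, quantile normalization, no variance trend and leaving out each array. Some genes are not reported here.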

Additional observations from a re-analysis of the deposited data

How the results depend on the processing

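Of 176 counts recomputed under an alternative, 159 stayed within 1.5 times the count in the text. With the background level at the 99th percentile the counts were 8 in place of 16 for all channel genes, 0 in place of 1 for barttin and the plasma membrane CLC genes, 1 in place of 3 for LRRC8, 1 in place of 3 for ENaC, 0 in place of 1 for sodium channel alpha subunits, 35 in place of 57 for all partner genes, 6 in place of 15 for aldosterone and ENaC control, 4 in place of 10 for cell volume and 1 in place of 3 for sodium channel partners. Scnn1b then lay under the level (limma adjusted p = 1.0). With the vomeronasal level the counts were 28 for all channel genes, 3 for barttin and the plasma membrane CLC genes, 5 in place of 3 for vesicular CLC, 6 in place of 2 for anoctamins, 2 in place of 0 for beta subunits and 8 for sodium channel partners. With the mean of the probe sets the count for alpha subunits was 0, since Scn2a turned to the other side of the level (limma adjusted p = 1.0).

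Leaving out each array in turn gave 15 to 16 channel genes, 2 to 3 for LRRC8, 2 to 3 for ENaC, 50 to 58 partner genes and 5 to 10 for the cell volume list, lowest without replicate 2. In all, 14 of the 16 calls held without each array, the exceptions being Lrrc8c and Scnn1b, and 8 held under all 9 alternatives (Clcn3, Clcn5, Clic1, Clic4, Ano1, Ano6, Lrrc8d and Scnn1g). The count of genes with a range above 1 log2 unit was 7 with quantile normalization in place of 8, 9 over all 52 genes, where Scn3b joined and the share was 17.3%, against 8.66% of all genes, and 12 at a range above 0.5, which 51.6% of all genes above background exceeded. Chosen after the data were seen were the counts without Scn2a (7) and over genes called with each array left out (6). No paired analysis was possible because there is 1 group.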

Other observations

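Probe sets that carry the symbols of several channel genes were left out of all counts above, and there were 4. The probe set shared by Clca4b and Clca4a had log2 signals of 6.19, 6.35 and 6.75 in replicates 2, 4 and 5 (6.43 ± 0.28), above the background level in replicates 4 and 5 and under it in replicate 2, while the probe sets of Clca4a and Clca4b alone had means of 4.89 and 4.50. The 3 probe sets shared among Scn1a, Scn2a, Scn3a and Scn9a had means of 3.23, 3.59 and 4.51, under the background level. These values were not tested and are given as a description of the array.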
